A study of Mus musculus with 5 samples.

Results

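The genes described here are 10 transcripts of the unfolded protein response and the integrated stress response, read on 5 mouse microarrays of fibroblasts, factor-transduced fibroblasts and Leydig cells. They were chosen by name, as the probes whose gene symbol in the platform annotation is Trib3, Chac1, Ddit3, Atf3, Atf4, Asns, Hspa5, Herpud1, Xbp1 or Dnajb9. All 10 had a named probe, 1 each, out of 19084 genes and 21876 named probes in all. The 10 genes were chosen with earlier results of these data known, so shares of all genes beside them are a description and no test. Of these 10 genes Trib3, Chac1 and Atf3 were higher in the factor-transduced cells than in Leydig cells, 3 of 10 where 5.72% of all genes were. Against the mock-transduced fibroblasts 0 of 10 passed the test over all genes, where 0.278% passed as higher and 0.283% as lower, and Hspa5, the central chaperone gene of the endoplasmic reticulum, had the only negative difference.

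Both responses begin with stress signals that the cell reads as a failure of protein making or folding. In the unfolded protein response, unfolded protein in the endoplasmic reticulum (ER) activates the sensors PERK, IRE1 and ATF6. ATF6 and the spliced form of Xbp1 drive chaperone and degradation genes, while PERK and related kinases phosphorylate eIF2alpha, which slows translation and lets the transcription factor ATF4 be made. That eIF2alpha and ATF4 branch, the integrated stress response, also answers amino acid shortage, haem shortage and double-stranded RNA, so its targets can move without any change in ER folding. Steroid-producing cells carry an extensive smooth ER, on which several enzymes of steroid synthesis sit.

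Of the 5 arrays, 1 (MEF) carries mock-transduced fibroblasts from embryos of 13.5 days. A pair (iLC) carries such fibroblasts given Dmrt1, Gata4 and Nr5a1 by lentivirus, named induced Leydig-like cells by the submitters. The other pair (Leydig) carries androgen-producing testis cells of mice aged 56 days. Per the labels' protocols, infected fibroblasts were moved to a medium with added IGF and PDGFAA; the same text stands beside every sample, so the sources used here do not tell whether mock-transduced cells shared that medium, how long iLC were cultured, which strain was used or whether animals were pooled. No label says whether a pair stems from separate cultures or animals, and p-values then measure the spread between these arrays, which may be technical. With so few arrays, their number limits all precision.

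Values are the deposited probe intensities, and differences are of group means of log2(intensity + 16), fitted with limma over all 19084 genes. A gene is called where its Benjamini-Hochberg adjusted p over those genes is under 0.05. The lone MEF array gives no spread of its own and was assumed to vary like the other pairs. Median intensities were close, from 1111 to 1230. The markers fixed for each cell type did not all follow the labels. Of 8 measured Leydig markers the summed intensity came to 46163 in MEF, 352815 and 450761 in iLC, with 528337 and 611864 in Leydig cells, but Cyp11a1, which makes pregnenolone, read 509.8 and 450.6 on the Leydig arrays against 562.1 on the MEF array. Most of the iLC sums came from Star, Hsd3b1, Fdx1 and Scarb1, so the sum does not stand for each marker. Star gave 695.0 in MEF, 56878 and 73892 in iLC, with 1368 and 19703 in Leydig cells. Cyp17a1 gave 2344 in MEF, 1382 and 2351 in iLC, with 40614 and 197728 in Leydig cells. Of the delivered factors, none read clearly above MEF in iLC: Dmrt1 gave 396.6 in MEF against 333.2 and 427.2, Gata4 6773 against 4127 and 3150, and Nr5a1 1265 against 1509 and 1158. Whether these probes can detect the delivered copies is not known, so they do not check the labels. The summed intensity of 10 germ cell markers was 36793 on the first Leydig array and 504633 on the second, against 11087 at most on the other 3 arrays. That of 11 macrophage markers came to 193185 in MEF, 52664 and 108543 in iLC, with 27067 and 27417 in Leydig cells. That of 7 markers of dividing cells was 181042 on the MEF array and 35061 to 54225 elsewhere. Among these, Mki67 gave 36627 in MEF, 40932 and 23934 in iLC, with 32574 and 36300 in Leydig cells. Aurka gave 34925 in MEF, 2701 and 2899 in iLC, with 1717 and 1356 in Leydig cells. The sum of 13 fibroblast markers was 1711160 on the MEF array, 1031950 to 1237950 in iLC and 579405 to 825868 in Leydig cells. Most of the Leydig sums came from Dcn, Vim and Pdgfra. Between Leydig cells and MEF, Pdgfra was called higher and Fn1, Lox, Postn, Thy1, S100a4 and Pdgfrb lower. The sum of 5 peritubular markers was 478246 to 584565 in MEF and iLC and 33772 to 49212 in Leydig cells, and that of 9 Sertoli markers 154602 to 271672 throughout. Of the Sertoli sum, Ctsl alone gave 146053 in MEF, 215931 and 259214 in iLC, with 133876 and 83053 in Leydig cells. Of the 9, only Aard and Cldn11 were called between Leydig cells and MEF, both higher in Leydig cells. Aard gave 1314 in MEF, 6029 and 3587 in iLC, with 50609 and 147767 in Leydig cells. Cldn11 gave 513.1 in MEF, 413.2 and 552.1 in iLC, with 4818 and 2505 in Leydig cells.

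Trib3, which encodes a pseudokinase induced by ATF4 and CHOP, gave 5288 in MEF, 31337 and 26384 in iLC, with 2630 and 2726 in Leydig cells. The iLC arrays stood above the other 3 and the groups did not overlap. Trib3 was higher in iLC than in Leydig cells by a log2 difference of 3.42 ± 0.31 (SE, n = 2 and 2, adjusted p = 0.00202), a 10.7-fold difference with a 95% interval of 6.38 to 17.9. Against MEF the difference was 2.44 ± 0.37 (n = 2 and 1), or 5.42-fold with an interval of 2.89 to 10.2, and it did not pass over all genes (adjusted p = 0.0611, unadjusted p = 0.000544 by limma). It did pass under 5 of 13 alternatives, with a lowest adjusted p of 0.0303 where values under the 20th percentile of an array were raised to it. Between Leydig cells and MEF the difference was -0.98 ± 0.37 (adjusted p = 0.218). In such bulk samples, fewer cells of a type and less RNA per cell cannot be told apart.

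Chac1 encodes an enzyme that breaks down glutathione and is a target of ATF4, and its start region is shown because it holds a C/EBP-ATF response element. Chac1 gave 6715 in MEF, 18241 and 24159 in iLC, with 2286 and 2650 in Leydig cells, again with the iLC arrays on top and no overlap. It was higher in iLC than in Leydig cells by 3.08 ± 0.32 (SE, log2, n = 2 and 2, adjusted p = 0.0032), or 8.48-fold with a 95% interval of 4.91 to 14.6. Against MEF its log2 difference was 1.64 ± 0.40 (adjusted p = 0.136), an interval of 0.68 to 2.61. Between Leydig cells and MEF it was -1.44 ± 0.40 (adjusted p = 0.0948), the most negative difference of the 10 genes in that comparison.

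Atf3 encodes a stress-induced transcription factor of the ATF/CREB family, and its start region is shown for the same element. Its lowest value, 502.6, lay above the 20th percentile of every array, which was 180.1 to 262.7. Atf3 gave 1068 in MEF, 3107 and 6176 in iLC, with 502.6 and 637.3 in Leydig cells. The iLC arrays lay 1.99-fold apart, the widest pair of the 10 genes, and both still read above the other 3 arrays. It was higher in iLC than in Leydig cells by 2.92 ± 0.42 (SE, log2, n = 2 and 2, adjusted p = 0.00918), or 7.56-fold with an interval of 3.73 to 15.3. That call was lost without Leydig replicate 1 (2.75, adjusted p = 0.0723) and without Leydig replicate 2 (3.08, adjusted p = 0.0768), whereas the calls of Trib3 and Chac1 were kept whichever of the 4 iLC and Leydig arrays was left out. Against MEF the difference was 2.02 ± 0.51 (adjusted p = 0.15), and between Leydig cells and MEF it was -0.90 ± 0.51 (adjusted p = 0.417).

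The 250 bases before the annotated start of these genes and of Asns are given 5′ to 3′ on the gene's strand, from RefSeq on GRCm38.p6, with matches to TGATGNAA on either strand in capitals. That motif is the core of the C/EBP-ATF response element (CARE), which ATF4 binds with a C/EBP partner.
Chac1, chr2:119350992-119351241, plus strand: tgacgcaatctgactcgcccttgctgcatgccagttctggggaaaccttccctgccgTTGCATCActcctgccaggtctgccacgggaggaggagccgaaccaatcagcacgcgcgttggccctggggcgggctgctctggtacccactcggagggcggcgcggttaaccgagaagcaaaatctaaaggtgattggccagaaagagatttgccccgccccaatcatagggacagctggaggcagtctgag
Atf3, chr1:191183334-191183583, minus strand: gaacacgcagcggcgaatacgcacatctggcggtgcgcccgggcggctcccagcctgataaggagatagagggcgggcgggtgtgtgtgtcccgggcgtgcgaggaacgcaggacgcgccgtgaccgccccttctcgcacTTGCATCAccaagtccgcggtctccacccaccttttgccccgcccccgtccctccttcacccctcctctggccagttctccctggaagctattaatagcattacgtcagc
Asns, chr6:7693210-7693459, minus strand: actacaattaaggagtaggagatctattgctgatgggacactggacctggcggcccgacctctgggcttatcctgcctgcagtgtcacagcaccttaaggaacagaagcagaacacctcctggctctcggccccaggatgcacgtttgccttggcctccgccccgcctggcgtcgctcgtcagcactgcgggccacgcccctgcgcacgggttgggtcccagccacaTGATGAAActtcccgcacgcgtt
The Chac1 match runs from position -193 to -186 before the start, the Atf3 match from -110 to -103 and the Asns match from -23 to -16. In Chac1 and Atf3 the matched letters are the same, read on the opposite strand, and in Asns they lie on the gene's strand.

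Ddit3 encodes CHOP, a C/EBP-family factor downstream of ATF4 that is known for its part in stress-induced cell death. It gave 12558 in MEF, 51909 and 56979 in iLC, with 19515 and 26217 in Leydig cells. Unlike Trib3, Chac1 and Atf3, it read lowest on the MEF array, and the Leydig arrays lay between. Its log2 difference between iLC and MEF was 2.11 ± 0.40 (SE, n = 2 and 1, adjusted p = 0.0863), or 4.33-fold with an interval of 2.22 to 8.42, and it passed under 1 of 13 alternatives, the raised low end (adjusted p = 0.0477). Between iLC and Leydig cells it was 1.27 ± 0.32 (adjusted p = 0.0587), which passed under 5 of 14 alternatives with a lowest adjusted p of 0.0362. Between Leydig cells and MEF it was 0.85 ± 0.40 (adjusted p = 0.31).

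Atf4 itself did not pass the test in any comparison. It encodes the transcription factor of the integrated stress response, and its protein is set largely by translation, which an array does not measure. It gave 181570 in MEF, 290103 and 221944 in iLC, with 182649 and 189581 in Leydig cells. Both iLC arrays read above the other 3, by log2 differences of 0.48 ± 0.39 against MEF (adjusted p = 0.612) and 0.45 ± 0.32 against Leydig cells (adjusted p = 0.429). The 95% intervals, -0.46 to 1.43 and -0.32 to 1.22, leave room for a difference of more than 1 log2 unit. Asns encodes asparagine synthetase, the ATF4 target named for the amino acid response. It gave 61891 in MEF, 103768 and 73998 in iLC, with 33488 and 45982 in Leydig cells, so that the order was the same as for Trib3. Its differences were 0.50 ± 0.43 against MEF (adjusted p = 0.639) and 1.16 ± 0.35 against Leydig cells (adjusted p = 0.0932), and neither passed.

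The members that serve the ER itself gave no call in any comparison. Hspa5 encodes BiP, the main chaperone of the ER lumen, and gave 89425 in MEF, 47210 and 52837 in iLC, with 61333 and 78059 in Leydig cells. Both iLC arrays read below the other 3. The log2 difference was -0.84 ± 0.39 against MEF (SE, adjusted p = 0.363), with a 95% interval of -1.78 to 0.10, and -0.47 ± 0.32 against Leydig cells (adjusted p = 0.406). Herpud1 encodes an ER membrane protein that takes part in the disposal of misfolded proteins. It gave 30809 in MEF, 35366 and 35428 in iLC, with 47768 and 36543 in Leydig cells. The order was MEF, iLC, Leydig, without overlap. Neither difference between neighbours exceeded its SE from the fit (0.20 ± 0.39 for iLC minus MEF, -0.24 ± 0.32 for iLC minus Leydig). The Herpud1 interval against MEF, -0.74 to 1.14, lay below the 2.44 estimated for Trib3, given the spread assumed for the lone MEF array.

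Dnajb9 encodes ERdj4, a co-chaperone of BiP, and gave 4146 in MEF, 9691 and 5705 in iLC, with 5713 and 7877 in Leydig cells. The iLC and Leydig arrays overlapped, and the MEF array was lowest, with a difference between iLC and MEF of 0.84 ± 0.48 (SE, log2, adjusted p = 0.46). Xbp1, the substrate of IRE1, gave 83428 in MEF, 88171 and 132381 in iLC, with 108883 and 121476 in Leydig cells. The iLC arrays lay on either side of the Leydig arrays, and the differences were 0.37 ± 0.42 against MEF (adjusted p = 0.728) and -0.09 ± 0.34 against Leydig cells (adjusted p = 0.895). Xbp1 acts through splicing of its mRNA, and the sources used here do not tell whether its probe sees the spliced form alone.

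The start regions of Hspa5 and Herpud1 are shown because they alone of the 10 hold a match to an ER stress response element. Matches to the ER stress response element (ERSE, which is CCAAT and CCACG with any 9 bases between them), its short form ERSE-II (ATTGG and CCACG with any 1 base between them) and CARE are in capitals. ERSE-II was added to the search after the matches in Herpud1 were seen.
Hspa5, chr2:34771840-34772089, plus strand: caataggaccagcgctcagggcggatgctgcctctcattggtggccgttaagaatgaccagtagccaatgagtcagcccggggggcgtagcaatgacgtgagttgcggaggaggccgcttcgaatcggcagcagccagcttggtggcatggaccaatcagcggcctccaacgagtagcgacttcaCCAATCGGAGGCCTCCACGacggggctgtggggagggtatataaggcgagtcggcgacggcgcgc
Herpud1, chr8:94386179-94386428, plus strand: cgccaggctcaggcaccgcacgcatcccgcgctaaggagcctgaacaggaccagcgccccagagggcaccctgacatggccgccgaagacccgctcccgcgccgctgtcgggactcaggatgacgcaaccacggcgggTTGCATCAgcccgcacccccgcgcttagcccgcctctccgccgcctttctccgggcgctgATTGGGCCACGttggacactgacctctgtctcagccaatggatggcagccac
ERSE lies in Hspa5 from position -65 to -47, and ERSE-II in Herpud1 from -52 to -42, beside a CARE match from -112 to -105. Of 32851 RefSeq start regions of 300 bases (250 before to 50 after the start, both strands searched), ERSE was in 0.119% and CARE in 3.97%, against 1 and 5 of the 10 members' regions. Members and motifs were both chosen as known parts of these responses, so such shares are a description and no test. ERSE-II was in 0.0365% of all regions, and nothing is read from its match in Herpud1, which prompted the search. The fifth CARE match is that of Trib3, at positions 15 to 22 after its start. The unfolded protein response element TGACGTGG was in 0 of the 10 and in 0.676% of all regions. The short motifs CCACG and CCAAT, parts of ERSE and so overlapping it, were in 6 and 7 of the 10 and in 32.8% and 37.4% of all regions. Of the 4 genes with the largest differences between iLC and MEF, Trib3, Ddit3, Atf3 and Chac1, only Ddit3 had no CARE match in this window. Asns and Herpud1 held a match too, with differences of 0.50 and 0.20 in that comparison. Whether matches go with differences was not tested. A match is a run of letters and not a measured binding site.

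**Figure D1:**
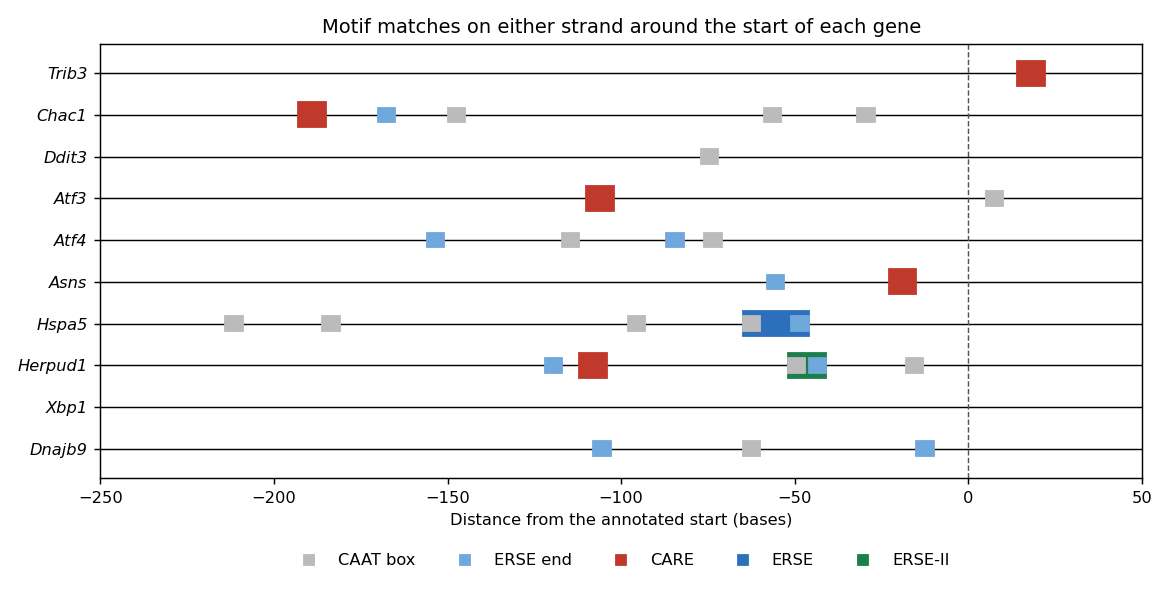
Positions of motif matches on either strand, from 250 bases before to 50 after the annotated start (dashed line), with 1 horizontal line per gene. Red marks CARE, found in Trib3, Chac1, Atf3, Asns and Herpud1; dark blue marks ERSE in Hspa5; green marks ERSE-II in Herpud1; light blue and grey mark the motif that ends ERSE and the CAAT box.

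The values by array show the separation within the set. Trib3, Chac1, Ddit3 and Atf3 had iLC arrays clear of all others, as had Atf4 and Asns by less and without a call, while the pairs of Xbp1 and Dnajb9 overlapped between iLC and Leydig cells. Of all genes, 34.0% had both iLC arrays above MEF and 28.9% had both above the Leydig arrays. The share with both patterns was not counted.

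**Figure D2:**
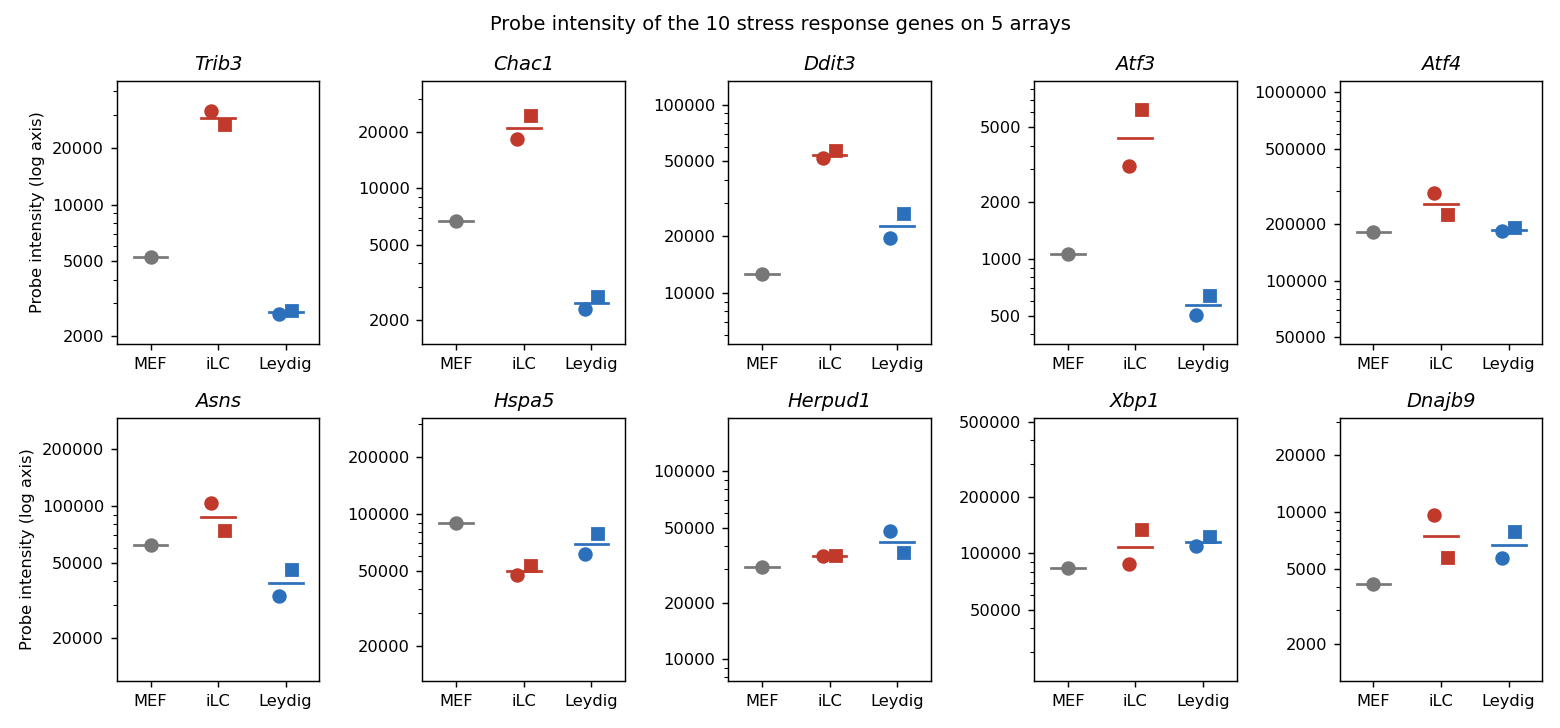
Probe intensity (log axis, with the same fold span in each panel) of each gene on the MEF array (grey), the iLC arrays (red) and the Leydig arrays (blue); circles are replicate 1, squares replicate 2, and bars the mean of the log2 values. Trib3 reads 31337 and 26384 on the iLC arrays and at most 5288 elsewhere, and Hspa5 is lowest on the iLC arrays.

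Counted over the set, 0 of the 10 members were called between iLC and MEF, where 0.278% of all genes were called higher and 0.283% lower. At an unadjusted p under 0.05, 4 members had a positive difference (Trib3, Ddit3, Chac1 and Atf3) and 0 a negative one, against 5.55% and 10.2% of all genes. Both iLC arrays read above the MEF array for 9 members and below it for Hspa5, against 34.0% and 44.4% of all genes. The median difference was 0.67, against -0.11 over all genes. Between iLC and Leydig cells 3 members were higher and 0 lower, against 5.72% and 5.65% of all genes. At an unadjusted p under 0.05, 5 had a positive difference, Ddit3 and Asns besides, and 0 a negative one (12.2% and 14.7% of all genes). The groups did not overlap for 6 members with iLC above and 2 with iLC below (28.9% and 29.0% of all genes), and the median was 0.80 against -0.03. Between Leydig cells and MEF 0 of the 10 were called (3.34% of all genes higher, 3.97% lower), while Trib3 and Chac1 had an unadjusted p under 0.05 with a negative difference and 0 members one with a positive difference, against 10.7% and 9.14% of all genes. There 5 members read above the MEF array on both Leydig arrays and 5 below it, against 32.9% and 44.1%, and the median was -0.17 against -0.10. These comparisons share arrays, so their values are set side by side and are not independent. The members were chosen with earlier results of these data known, so the shares of all genes give no test of the set.

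**Figure D3:**
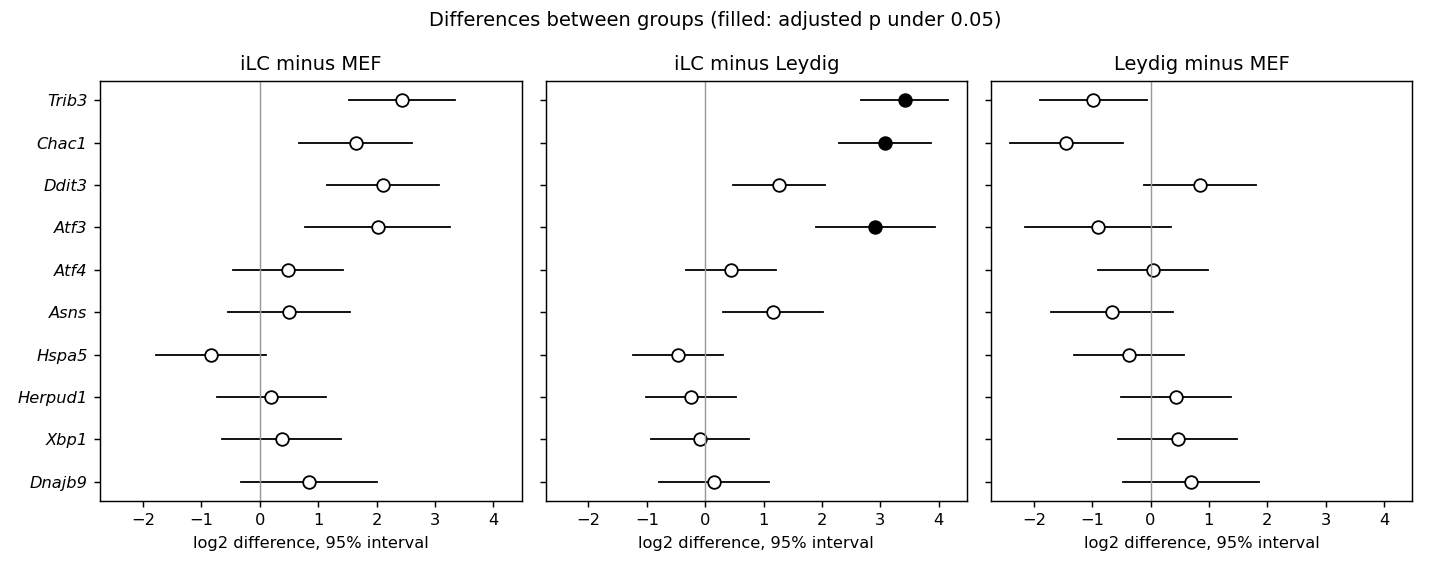
Log2 difference of each gene in the 3 comparisons, with 95% intervals from the limma fit; filled points have an adjusted p under 0.05. Trib3, Chac1 and Atf3 are filled for iLC minus Leydig, and none is filled in the other comparisons.

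Marker sums differed between the same groups, though single markers did not all move with their sum. The part of these sums in the members' differences was not tested. Between iLC and Leydig cells, the comparison that holds the called members, the sum of 5 peritubular markers was 536077 and 478246 against 33772 and 49212, that of 13 fibroblast markers 1237950 and 1031950 against 825868 and 579405, and that of 11 macrophage markers 52664 and 108543 against 27067 and 27417. Between iLC and MEF the macrophage sum was 52664 and 108543 against 193185, that of 7 division markers 54225 and 35061 against 181042, and the fibroblast sum 1237950 and 1031950 against 1711160. On the iLC arrays the macrophage sum was larger on replicate 2 (108543 against 52664), as were Atf3, Chac1, Ddit3, Xbp1, Hspa5 and, by little, Herpud1, while Trib3, Atf4, Asns and Dnajb9 were larger on replicate 1. Without Leydig replicate 2, the array with the large germ cell sum, the differences between iLC and Leydig cells were 3.44 for Trib3, 3.19 for Chac1 and 3.08 for Atf3, against 3.42, 3.08 and 2.92 with it, and the call of Atf3 was lost (adjusted p = 0.0768). The part of germ cell transcripts in these differences was not tested. Over the members, the Leydig pair lay between 1.04-fold (Trib3) and 1.38-fold (Dnajb9) apart.

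The likeness of 2 profiles was measured as the root mean square difference of their log2 values over the 5 arrays, after each gene was centred on its mean. Among the members, Herpud1 and Xbp1 were closest (0.26), followed by Chac1 and Atf3 (0.27) and Atf4 and Dnajb9 (0.30). Trib3 lay at 0.36 from Chac1. The wider ranking took 14491 named genes above the dimmest 20 percent, members included, with predicted genes and clones left out. Those closest to Trib3 were Prrt3 (0.15), Tnks (0.19) and Sec14l2 (0.21). Those closest to Chac1 were Rnf149 (0.11), Lhx6 (0.13) and H3c15 (0.14), and those closest to Ddit3 were Mmgt2 (0.15), Sh3d21 (0.16) and Nags (0.19). Those closest to Atf3 were Slco2a1 (0.07), Arg2 (0.09) and Wfs1 (0.10), of which Wfs1 encodes wolframin, an ER membrane protein. Wfs1 gave 6601 in MEF, 20403 and 36377 in iLC, with 3684 and 4359 in Leydig cells. Prrt3 read under the array's 20th percentile on the MEF array (216.7) and on both Leydig arrays (130.3 and 123.6), as did Lhx6 on the Leydig arrays (90.3 and 90.8), so their likeness rests on dim values there. The nearest genes to the other members were Dmac2 for Herpud1 (0.02), Trcg1 for Asns (0.04), Map2k4 for Hspa5 (0.04) and Rccd1 for Atf4 (0.04). For Dnajb9 it was Rtn4ip1 (0.04) and for Xbp1 Rap1a (0.05). Each member lay closer to a gene outside the set than to any other member. Far more genes outside the set than members were compared, so nothing is read from this about likeness within the set. The ranking is a description of these 5 arrays.

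Other genes of these responses were taken from 9 lists, with 128 measured genes in all. Between iLC and MEF, limma called 0 of the 128, where 0.278% of all genes were called higher and 0.283% lower. At an unadjusted p under 0.05, the level used for the lists in this comparison, 5.55% of all genes had a positive difference and 10.2% a negative one, and the median over all genes was -0.11. The ATF4 targets that supply amino acids had 6 of 18 with an unadjusted p under 0.05 and a positive difference, and 0 with a negative one (median 0.56). Among the 6 was Slc3a2 (1.08), named after its value was seen, whose other probe gave -0.000185. Cth, which encodes the enzyme that makes cysteine from cystathionine, gave 3415 in MEF against 25907 and 42834 in iLC, a difference of 3.28 ± 0.46 (SE, log2) with an adjusted p = 0.0518 by limma. Slc7a11, the cystine importer, had 2.21 ± 0.69 (adjusted p = 0.215). The stress regulators and secreted factors downstream of ATF4 had 4 of 12 with a positive difference at that unadjusted level and 0 with a negative one (median 0.87), led by the stress-induced nuclear protein gene Nupr1 (1.83, adjusted p = 0.136) and the angiogenic factor gene Vegfa (1.49, adjusted p = 0.271). The aminoacyl-tRNA synthetases, also known ATF4 targets, had a median of -0.29 and 0 of 12 with a positive difference at that level. There 1 had a negative difference at that level, Aars (-1.68, adjusted p = 0.224), and Yars had -0.73. Wars and Eprs, named after their values were seen, had 0.27 and -0.27, and their other probes gave 1.53 and -0.04.

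The ER chaperones and folding enzymes had a median of -0.66 between iLC and MEF, with 6 positive and 18 negative differences among 24, of which 1 and 3 had an unadjusted p under 0.05, against 5.55% and 10.2% of all genes; the median over all genes was -0.11. Cdnf, a neurotrophic factor kept in the ER, had 1.68 and the disulfide isomerase gene Pdia6 -1.64 (adjusted p = 0.136 and 0.181). Hsp90b1, which encodes the ER chaperone GRP94 and was named after its value was seen, gave 130568 in MEF against 52523 and 69514 in iLC (-1.11, adjusted p = 0.271). The genes of ER-associated degradation had a median of -0.004 over 21, with 1 positive and 1 negative at that unadjusted level, Derl3 (1.65) and Derl1 (-1.85), both encoding derlins of the ER membrane. Derl1 read 293.8 and 197.1 in iLC, the latter under its array's 20th percentile of 220.8. The ER stress sensors and their processing enzymes had 0 of 11 at that level in either direction (median 0.13). Creb3l1 (0.95) and Creb3l3 (0.78) had the largest differences by the probes used. Mbtps2, named after its value was seen, had 0.40, and its other probe gave 1.81. Of the eIF2alpha kinases, phosphatase subunits and eIF2B, 1 of 12 was at that level, Ppp1r15a (1.44, adjusted p = 0.15), which encodes GADD34, the stress-induced subunit of the eIF2alpha phosphatase; Eif2b2 had -1.12. The cytosolic heat shock genes had 1 positive and 2 negative of 11 (median -0.44), with Hspa1b at -2.20 (adjusted p = 0.0916) and Hspa1a at -1.64, near-identical genes whose probes may share signal. The ER stress cell death genes had 0 of 8 (median 0.27), Bak1 having -1.01 and Bbc3 0.74, whose other probe gave -1.48.

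Between iLC and Leydig cells 12 of the 128 list genes were higher and 8 lower, or 9.38% and 6.25%, against 5.72% and 5.65% of all genes. Of the amino acid supply genes 3 of 18 were higher and 2 lower. Cth read 1314 and 1677 on the Leydig arrays and was higher in iLC by 4.47 ± 0.37 (SE, log2, adjusted p = 0.00183). Slc7a3, a cationic amino acid transporter gene, was higher by 3.37 ± 0.30 (adjusted p = 0.00204), and Slc1a4, a neutral amino acid transporter gene, by 1.59 (adjusted p = 0.0327). Slc7a5, a large neutral amino acid transporter gene, was lower, at -2.26 (adjusted p = 0.0103), as was Gpt2, a mitochondrial transaminase gene, with -1.77 (adjusted p = 0.0173). Slc1a4 and Gpt2 were named after their values were seen. Of the stress regulators 5 of 12 were higher and 1 lower. Vldlr, a lipoprotein receptor gene, was higher by 2.64 (adjusted p = 0.0207; its other probe gave 1.79), Sesn2, which encodes the leucine sensor sestrin 2, by 2.01 (adjusted p = 0.0139), and Vegfa, Nupr1 and Ddit4, named after their values were seen, by 2.00, 1.72 and 1.60. Stc2, which encodes a secreted glycoprotein, was lower, at -2.97 (adjusted p = 0.00652).

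Of the other lists in that comparison, Ppp1r15a was higher (1.70, adjusted p = 0.0179) and Eif2ak2, which encodes the kinase PKR and is also an interferon-induced gene, was lower (-2.04, adjusted p = 0.00993), out of 12. Of 24 ER chaperones and folding enzymes Ero1a, an ER oxidase gene, was higher (2.07, adjusted p = 0.0159), with a list median of -0.11. None of the 21 degradation genes, 11 sensors or 12 synthetases was called by limma, with 2, 2 and 0 at an unadjusted p under 0.05, where 12.2% of all genes had a positive and 14.7% a negative difference at that level. Creb3l2 had 1.10, Derl1 -1.39, with the same dim iLC value, and Aars -0.88 there. Probes not used for these counts gave 2.14 for Ube2g2, 1.71 for Wars, 1.47 for Erlec1, 0.62 for Mbtps2 and 0.40 for Eprs. They gave -0.33 for Edem2, -0.15 for Edem3 and -0.08 for Os9. Of 11 cytosolic heat shock genes 4 were lower and 1 higher: Hspb1 had -3.22 (adjusted p = 0.00741), Hspa1a -2.37 (adjusted p = 0.00767), Hspa1b -2.28 (adjusted p = 0.0118) and Dnaja1 -1.52, whose other probe gave 0.47, while Hspb8 had 1.77. Dnaja1 and Hspb8 were named after their values were seen. Of 8 cell death genes 2 were higher, Pmaip1 and Ero1a, a gene held by 2 lists. Pmaip1, which encodes the BH3-only protein NOXA, gave 7843 in MEF, 10943 and 9809 in iLC, with 165.1 and 285.0 in Leydig cells, where the lower value lay under its array's 20th percentile of 214.4. Its difference was 5.47 ± 0.37 (adjusted p = 0.00109), but the iLC arrays differed from MEF by 0.40 only (adjusted p = 0.724). The calls of Cth, Slc7a3 and Pmaip1 were kept whichever of the 4 iLC and Leydig arrays was left out, and the other 17 of the 20 were lost without at least 1 of them.

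Between Leydig cells and MEF 4 of the 128 were higher and 2 lower (3.34% and 3.97% of all genes). Gpt2 (2.53, adjusted p = 0.0149), the glycine transporter gene Slc6a9 (2.48, adjusted p = 0.0182), Hspb1 (2.47, adjusted p = 0.0471) and Stc2 (2.36, adjusted p = 0.0361) were higher, and Pmaip1 (-5.07, adjusted p = 0.00391) and Pdia5, an ER disulfide isomerase gene (-2.37, adjusted p = 0.0471), were lower. Of these calls, that of Pmaip1 alone was kept without each of the 4 iLC and Leydig arrays. Some ATF4 targets thus read highest on the Leydig arrays (Gpt2, Slc6a9, Slc7a5 and Stc2) and others on the iLC arrays (Trib3, Chac1, Atf3, Cth, Slc7a3 and Sesn2).

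**Figure D4:**
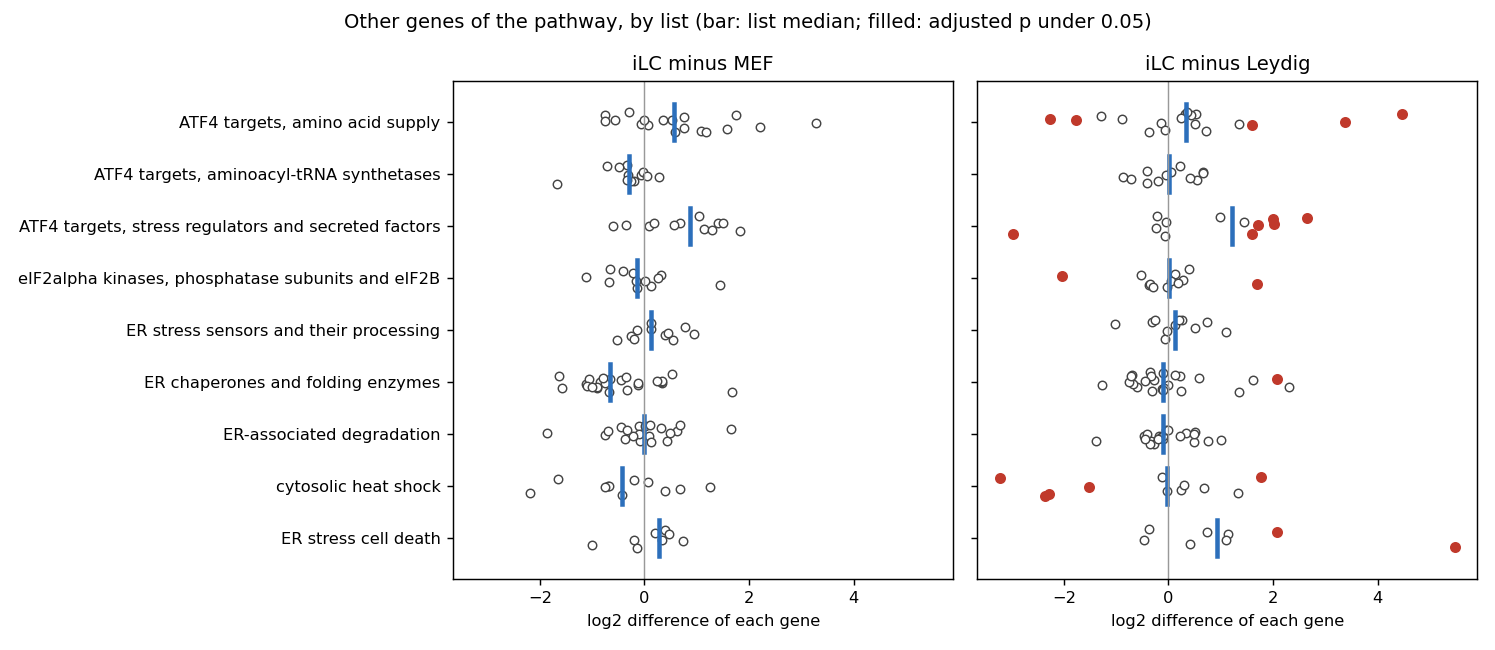
Log2 difference of every measured gene of the 9 lists, for iLC minus MEF (left) and iLC minus Leydig (right); bars are list medians and filled points have an adjusted p under 0.05. On the left no point is filled, and the medians run from -0.66 for ER chaperones to 0.87 for the stress regulators downstream of ATF4.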

How the data were processed

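Per the labels' protocols, amplified Cy5-labelled RNA of each of the 5 samples went onto 1 single-colour array. The authors deposited 1 processed linear intensity per probe and sample; the sources used here do not state how background was corrected or arrays were normalized, and detection calls were not used here. Samples were grouped by title. Probes were named through the platform annotation, with symbols updated by Entrez identifier (GRCm38.p6 gene table); of 26423 probes, 4547 had no symbol. For the 2424 genes with several probes the one with the highest mean log2 value was used. Counts and medians of the lists rest on that probe, and another probe of the same gene can differ. Values below 0 (0, 435, 23, 0 and 46 on the arrays) were set to 0, and 16 was added before log2. Limma 3.58.1 in R 4.3.3 (lmFit, eBayes) took all 5 arrays in a single fit with a mean for each group, 2 residual and 4.21 prior degrees of freedom, two-sided, and was tested on simulated data. Root mean square SDs of paired arrays were 0.459 (iLC) and 0.548 (Leydig) on the log2 scale. The members, the 9 lists, the markers and the motifs were chosen with earlier results of these data known. Named were all members and, per list and comparison, up to 3 called genes with the largest difference or, where none was called, up to 2 genes with the largest difference. The 3 genes nearest to the profiles of Trib3, Chac1, Ddit3 and Atf3 were named too, and the nearest gene for each other member. Alternatives were other pseudocounts, a filter on dim genes, median centring, quantile normalization, a raised or aligned low end, the mean of a gene's probes, the compared groups only, a block on replicate number, and each iLC or Leydig array left out. Some repeat a fit. In comparisons with MEF, leaving out an array of the group not compared gave the same fit as the compared groups only. Between iLC and Leydig cells the compared groups only gave the main fit again. Each member had 1 probe, so the mean of a gene's probes could not change its difference.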

Additional observations from a re-analysis of the deposited data

How the results depend on the processing

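Of 400 recomputed member differences, 384 kept their direction and their side of the threshold, 11 newly passed, 2 no longer passed and 3 changed sign. Counts of alternatives, here and above, include repeated fits and settings that could not change a member's difference. The 384 is therefore not a count of separate checks. The sign changes were of differences near 0 between iLC and Leydig cells: with each array left out in turn Xbp1 ranged from -0.38 to 0.20, positive without iLC replicate 1, and Dnajb9 from -0.23 to 0.53, negative without iLC replicate 1 (-0.23) and without Leydig replicate 1 (-0.08). Of 780 recomputed differences of the named list genes, 1 changed sign (Bbc3 between iLC and MEF, -0.37 with the mean of its probes), 87 no longer passed and 13 newly passed. Between iLC and MEF the 0 called members became 1 with a pseudocount of 64, without dim genes, with median centring or with quantile normalization (Trib3 each time) and 2 with a low end raised to the 20th percentile (Trib3 and Ddit3). Between iLC and Leydig cells the count of 3 ranged from 2 to 4. Of all genes, 107 were called between iLC and MEF, 9 with a pseudocount of 1, 290 with 64, 205 without dim genes, 414 with median centring, 362 with quantile normalization, 326 with the raised low end, 6 with aligned low ends (6 higher and 0 lower, in place of 53 and 54; a pseudocount of 1 gave 7 and 2, and median centring 156 and 258), and 0 with only the compared groups (2886 at an unadjusted p under 0.05 by limma). Without 1 of the iLC or Leydig arrays limma called 0 in each case (2132 to 2886 at an unadjusted p under 0.05), 696 to 1271 in place of 2170 between iLC and Leydig cells, and 153 to 964 in place of 1394 between Leydig cells and MEF. Each such fit has 1 residual degree of freedom in place of 2; for the other settings the cause was not tested. With the replicate number as a block over the iLC and Leydig arrays, 3440 genes were called in place of 2170, while 3 members were called as before, Trib3, Chac1 and Atf3. The pairing is by number only: across genes, the difference between replicates 1 and 2 correlated at 0.06 between the groups. The median over all genes between iLC and MEF was -0.11, 0.05 after quantile normalization and 0.12 with aligned low ends. Signal over background was not assessed.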
